A study of Mus musculus with 6 samples.

Results

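Wnt5a signals mainly outside the beta-catenin branch of the Wnt pathway, and the 10 genes described here belong to that signalling. They encode the ligands Wnt5a, Wnt5b and Wnt11, the receptors Ror1, Ror2, Ryk and Ptk7, and the planar polarity proteins Vangl1, Vangl2 and Prickle1. They were matched to the expression table by gene symbol, from a set drawn up with earlier results of these data known, and all 10 were found among 19938 genes, each on 1 probe set. As background, Wnt5a binds Ror2 and the related Ror1, and the signal runs through Dishevelled to the actin cytoskeleton, or through calcium. Planar polarity proteins, first defined in Drosophila, sort to opposite sides of a cell and orient it within a tissue. In bone, Wnt5a made by cells of the osteoblast lineage acts through Ror2 on osteoclast precursors, and Wnt5a and Ror2 have been studied in the motility of osteosarcoma cells.

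Mouse cells of 2 kinds were compared, each sample on 1 array of the Affymetrix Mouse Gene ST type. The 3 osteosarcoma lines, OS_493H, OS_494H and OS_716H, were grown from primary tumours of C57Bl6 mice carrying Osx-Cre and floxed alleles of both p53 (fl/fl) and Rb (fl/fl), so that Cre acts where the Osterix promoter of the osteoblast lineage is active. By the labels the first came from the hip of a female, the second from the hip of a male and the third from the tibia of a female, at ages 188, 190 and 226, with no unit given. They were compared with 3 samples of KUSA4b10, a mouse bone marrow stromal line from the C57Bl6 strain per the labels, which had been fed ascorbate at 50 ug/ml from confluence on and were taken after 21 days of it. No ascorbate treatment is given for the lines. Each line is from 1 tumour, while the 3 cultures are 1 cell line whose titles number them as replicates without saying whether they were grown apart, so the p-values hold the spread between tumours but not that between osteoblast lines, and part of the culture spread may be technical.

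Values are log2 expression made by RMA, on which 1 unit is a doubling, and 3 arrays per group limit the precision of every value. Rb1, which the model deletes in part, was 9.61 ± 0.32 in the lines and 10.66 ± 0.01 in the cultures (SD, n = 3 each), a difference of -1.05 (limma adjusted p = 0.00427), read over probes that are not limited to the deleted part. The array labelled OS_716H, a female, gave 10.11 for the Y-linked gene Eif2s3y, beside 9.96 in the line from a male and 4.08 in OS_493H, and 5.50 for Xist, the RNA of the inactive X chromosome, beside 12.62 in OS_493H. Its values are used under that label, and the calls were also made without it. Cultures 1 and 3 differed by more than 1 log2 unit at 3 genes, and culture 2 differed from them at 150 and 186 genes. Of 9 measured osteoblast markers 4 fell and none rose in the lines. Ibsp, bone sialoprotein, fell by 6.16 and Sp7 (Osterix) differed by -1.21 without passing (limma adjusted p = 0.000714 and 0.141), or by -0.71 without culture 2. The cultures carried adipocyte markers: 8 of 9 were lower in the lines, the mean level of the list was 7.53 to 8.03 in the lines and 10.67 to 11.33 in the cultures, and Adipoq differed by -5.95. All 7 measured proliferation markers were higher in the lines, with a list mean of 11.40 to 11.88 in the lines and 9.02 to 10.08 in the cultures, and Mki67 differed by 2.23. Macrophage and blood cell (1 of 8, Cd14, higher), endothelial (0 of 6) and epithelial markers (0 of 6) gave no further call, with list means between 6.44 and 7.18 in the lines and between 6.39 and 7.15 in the cultures. The endothelial marker Tek was uneven, at 9.05 in OS_493H, 6.30 in OS_494H and 7.52 in OS_716H, against 6.34 to 6.40 in the cultures (limma adjusted p = 0.21). The part of growth state and of fat-like differentiation in the differences below was not tested. In RNA from whole cultures, fewer cells making a transcript and less transcript per cell cannot be told apart.

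Of the 10 genes, 4 rose in the osteosarcoma lines (Wnt5a, Ror2, Vangl1 and Ryk) and 1 fell (Ptk7) in a limma fit over all genes, at an adjusted p under 0.05 after Benjamini-Hochberg correction. Without OS_716H the same 5 genes passed in the same directions. Among all 19938 genes tested, 13.2% rose and 11.4% fell, so the single fall is close to the background share. The median log2 difference of the 10 genes was 0.49, beside -0.02 over all genes. All 3 lines lay above all 3 cultures for 6 genes, against 20.5% of all genes, and below them for 1, against 21.0% of all genes. The 3 genes whose groups overlapped were Wnt5b, Wnt11 and Vangl2. The plot of the values on each array shows all 10 genes on axes of equal span.

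**Figure D1:**
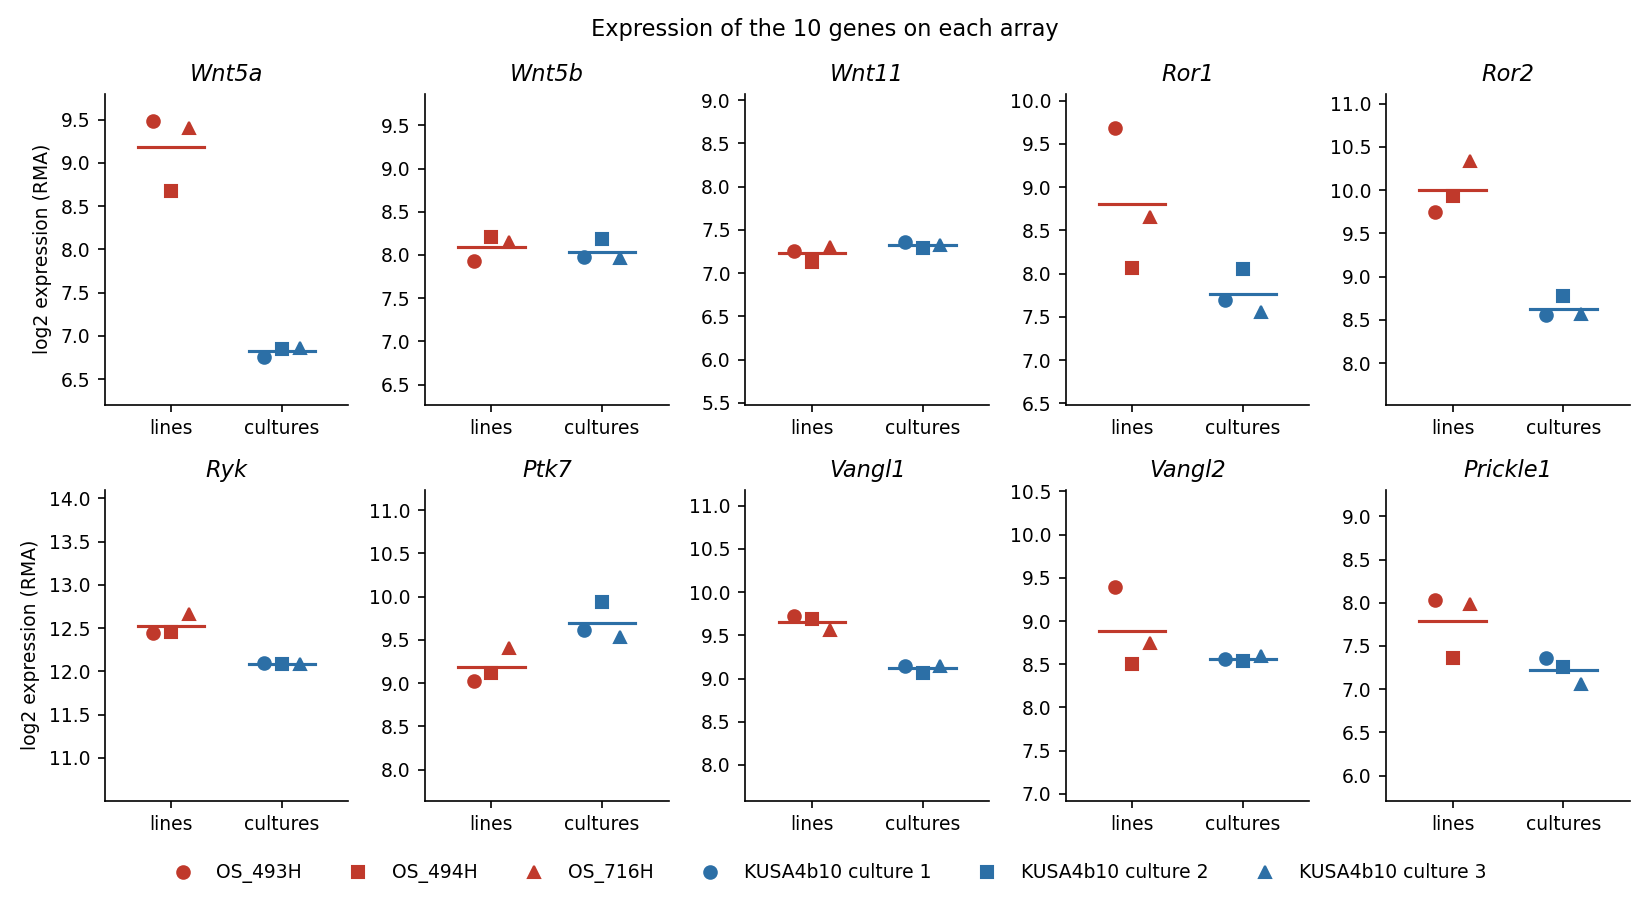
Log2 expression (vertical axes, each spanning the same number of log2 units) of the 10 genes on each array, with the 3 osteosarcoma lines in red on the left and the 3 KUSA4b10 cultures in blue on the right of each panel. Points are arrays and bars are group means, and the groups stand furthest apart for Wnt5a, at 8.67 to 9.49 in the lines and 6.75 to 6.86 in the cultures.

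Among the 3 ligands, Wnt5a alone passed the test. Wnt5a reached 9.49 in OS_493H, 8.67 in OS_494H and 9.40 in OS_716H, against 6.75, 6.85 and 6.86 in cultures 1, 2 and 3. The lowest line stood 1.82 log2 units above the highest culture, and the cultures lay within 0.11 of each other while the lines spread over 0.81. The difference was 2.37 ± 0.21 (SE), or 5.17-fold on the RMA values (limma adjusted p = 0.000993), and 128 genes of all those tested had a larger rise. The culture values of Wnt5a lie between the list means of the endothelial and epithelial markers there, so they are not shown to be above background, and the fold is not a measure of true transcript ratio. Wnt5b, the closest relative of Wnt5a, was 7.93, 8.21 and 8.15 in the lines, against 7.98, 8.18 and 7.96 in the cultures. These groups overlapped, and the difference was 0.05 with a 95% interval of -0.20 to 0.31 (limma adjusted p = 0.771). The epithelial marker Krt8 read 7.95 to 7.98 in the lines and 7.75 to 8.05 in the cultures. Wnt5b stood close to it and is thus not shown to be above background. Wnt11, a ligand of cell movements in the vertebrate gastrula, was 7.26, 7.13 and 7.30 in the lines, against 7.36, 7.29 and 7.33 in the cultures, a difference of -0.09 with an interval of -0.28 to 0.09 (limma adjusted p = 0.437). The upper bounds of both intervals lie below the lower bound for Wnt5a, 1.86. Wnt11 stood close to the epithelial list means in both groups, 7.07 to 7.18 in the lines and 7.07 to 7.15 in the cultures. Its level is thus not shown to be above background.

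Because the ligands are close relatives, their unequal change was also measured within each array, as the log2 value of Wnt5a minus that of Wnt5b. This was 1.56, 0.46 and 1.25 in the 3 lines, against -1.24, -1.33 and -1.11 in the 3 cultures, so every line lay above every culture. The mean shift was 2.31. Its p in an exact two-sided permutation test was 0.1, as low as 3 against 3 can go, or 0.3 after Benjamini-Hochberg adjustment over the 3 pairs of relatives tested. A value of 0 on this scale has no meaning of its own, since the 2 genes are read by different probes. The culture levels of both genes are not shown to be above background.

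Among the 4 receptors, Ror2 and Ryk rose, Ptk7 fell and Ror1 did not pass. Ror2, the receptor tyrosine kinase through which Wnt5a acts in limb and skeletal development, reached 9.75 in OS_493H, 9.93 in OS_494H and 10.34 in OS_716H, against 8.55, 8.77 and 8.57 in the cultures. Each line exceeded the highest culture by at least 0.98. The difference of 1.38 ± 0.16 (SE) is a 2.60-fold higher level (limma adjusted p = 0.002). Ryk, a Wnt-binding receptor whose kinase domain is inactive, was 12.44, 12.46 and 12.66 in the lines, against 12.10, 12.08 and 12.08 in the cultures. Ryk thus rose by little, 0.44 ± 0.08 (SE) or 1.35-fold (limma adjusted p = 0.0107). The groups did not overlap, and the cultures differed from each other by 0.02, a spread that may be partly technical. The call of Ryk held on leaving out any 1 array, with limma adjusted p up to 0.0484.

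Ror1, the paralogue of Ror2, was uneven among the lines, at 9.68 in OS_493H, 8.07 in OS_494H and 8.65 in OS_716H, against 7.69, 8.05 and 7.56 in the cultures. The groups were separated by 0.02, since OS_494H stood level with culture 2. The culture values of Ror1 stood close to those of the epithelial marker Krt8, 7.75 to 8.05. They are thus not shown to be above background, and a fold of Ror1 is not a measure of true transcript ratio. The difference of 1.03 ± 0.39 (SE), or 2.04-fold, did not pass (limma adjusted p = 0.108), with a 95% interval of 0.10 to 1.96. Without OS_494H it was 1.40 and passed (limma adjusted p = 0.0219). Without OS_493H it was 0.59 (limma adjusted p = 0.135). With array weights the difference of Ror1 was 1.43 and that of Ror2 1.32, so which of them differed more depends on the weighting. Ror2 minus Ror1 within the arrays was 0.07, 1.87 and 1.70 in the lines, against 0.86, 0.72 and 1.02 in the cultures, so the line with the most Ror1 signal, OS_493H, lay below the cultures and the other lines above them. The mean shift of 0.34 was smaller than the SD of 0.99 over the lines (two-sided exact permutation test, p = 0.5, adjusted p = 0.5), and leaving out 1 array moved it between 0.02 (without OS_494H) and 0.92 (without OS_493H).

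Ptk7, a receptor-like protein without kinase activity that is needed for planar polarity in vertebrates, went the other way. Ptk7 was 9.02, 9.12 and 9.41 in the lines, against 9.62, 9.94 and 9.53 in the cultures, with all lines below all cultures by 0.12 or more. The difference of -0.51 ± 0.15 (SE), a 1.43-fold lower level, passed narrowly (limma adjusted p = 0.0467). The call was lost on leaving out OS_493H (adjusted p = 0.13), OS_494H (0.0938), culture 1 (0.108), culture 2 (0.115) or culture 3 (0.0709), and held without OS_716H (0.025). Arrays centred on their medians (0.0561) or quantile normalised (0.0518) did not keep it either.

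The DNA before the transcription start is shown for the 3 receptors whose level passed the test, as 250 bases ending at the start, 5′ to 3′, from the RefSeq promoter table of build GRCm38.p6. Capitals mark matches, on either strand, to the GC box GGGCGG bound by Sp1-type factors, to the TATA box TATAAA, to E2F sites (TTTGGCGC, TTTCCCGC, TTTGCCGC or TTTCGCGC), searched because Rb acts on E2F, and to the TCF/LEF core CTTTGA of beta-catenin signalling. Adjoining capitals can be overlapping matches.
Ror2, chr13:53286125-53286374, minus strand: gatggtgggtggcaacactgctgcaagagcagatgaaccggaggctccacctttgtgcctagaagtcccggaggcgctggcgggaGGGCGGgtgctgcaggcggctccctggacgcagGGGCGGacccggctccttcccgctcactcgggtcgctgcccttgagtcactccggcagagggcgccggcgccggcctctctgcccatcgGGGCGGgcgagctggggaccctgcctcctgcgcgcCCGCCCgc
Ryk, chr9:102834670-102834919, plus strand: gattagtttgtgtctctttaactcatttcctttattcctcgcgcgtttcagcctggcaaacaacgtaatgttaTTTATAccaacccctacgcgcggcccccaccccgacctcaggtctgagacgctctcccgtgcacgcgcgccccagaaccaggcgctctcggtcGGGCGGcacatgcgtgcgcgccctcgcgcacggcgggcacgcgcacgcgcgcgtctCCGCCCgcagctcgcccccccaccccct
Ptk7, chr17:46629505-46629754, minus strand: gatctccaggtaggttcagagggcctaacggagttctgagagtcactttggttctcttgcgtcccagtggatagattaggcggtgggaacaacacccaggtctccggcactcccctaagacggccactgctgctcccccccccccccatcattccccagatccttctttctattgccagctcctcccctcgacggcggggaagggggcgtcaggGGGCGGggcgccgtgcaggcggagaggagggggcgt
The Ror2 window held 4 GC boxes, that of Ryk 2 and that of Ptk7 1, so the receptors that rose and the one that fell all had this motif. The Ryk window also held 1 match to the TATA letters. It begins at -177, counted back from the end of the window, and lies on the opposite strand, as TTTATA. It is thus not shown to be a working TATA box. None of the 3 windows matched the E2F or TCF/LEF letters. RefSeq windows were found for 8 of the 10 genes, but not for Wnt5a and Vangl1, which both rose. The 8 genes had 12 windows in all because some genes have several starts. Of the 12, 10 held a GC box, compared with 32.7% of all 32851 windows. The shares of all windows with a TATA box, an E2F site and a TCF/LEF core were 12.4%, 1.86% and 13.8%, and 2, 1 and 3 of the 12 windows had one. The windows of Ror2, Ryk and Ptk7 were 73.2%, 65.2% and 64.0% G and C, where the median of all windows was 52.4%. The part of base composition in the GC box matches was not tested.

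Among the planar polarity proteins, Vangl1 rose and its relative Vangl2 did not pass. Vangl1, a multi-pass membrane protein that anchors Prickle, was 9.72, 9.69 and 9.56 in the lines, against 9.15, 9.06 and 9.14 in the cultures. Both groups were tight, with SDs of 0.09 and 0.05, and 0.41 lay between them. The difference was 0.54 ± 0.08 (SE), or 1.45-fold (limma adjusted p = 0.0038). Vangl2 stood at 9.39 in OS_493H, 8.50 in OS_494H and 8.75 in OS_716H, against 8.56, 8.54 and 8.59 in the cultures. OS_493H alone stood well above the cultures, OS_494H was below them, and the difference of 0.31 had an interval of -0.20 to 0.83 (limma adjusted p = 0.361). Without OS_493H it was 0.06, and without OS_494H 0.51 (limma adjusted p = 0.1). Vangl2 minus Vangl1 was -0.34, -1.19 and -0.80 in the lines, against -0.58, -0.52 and -0.55 in the cultures. These ranges overlapped, and the shift of -0.22 gave p = 0.4 in a two-sided exact permutation test (adjusted p = 0.5). It was -0.45 without OS_493H and -0.02 without OS_494H, so the data do not show whether the 2 Vangl genes changed by different amounts.

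Prickle1, a cytoplasmic protein that binds Vangl, stood at 8.03 in OS_493H, 7.36 in OS_494H and 7.99 in OS_716H, against 7.36, 7.26 and 7.06 in the cultures. OS_494H exceeded culture 1 by a margin that rounds to 0.00, while the other lines lay above all cultures. The difference of 0.57 ± 0.19 (SE), 1.48-fold, did not pass (limma adjusted p = 0.0799), with an interval of 0.11 to 1.03. It was 0.78 and passed without OS_494H (limma adjusted p = 0.00469). The culture values of Prickle1 stood close to the epithelial list mean there, 7.07 to 7.15. They are thus not shown to be above background, and the fold is not a measure of true transcript ratio. The plot of differences with their intervals gives the order of the 10 genes, from Wnt5a to Ptk7. Ror1 and Prickle1 have larger differences than Vangl1 and Ryk but wider intervals, and of these 4 genes Vangl1 and Ryk passed.

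**Figure D2:**
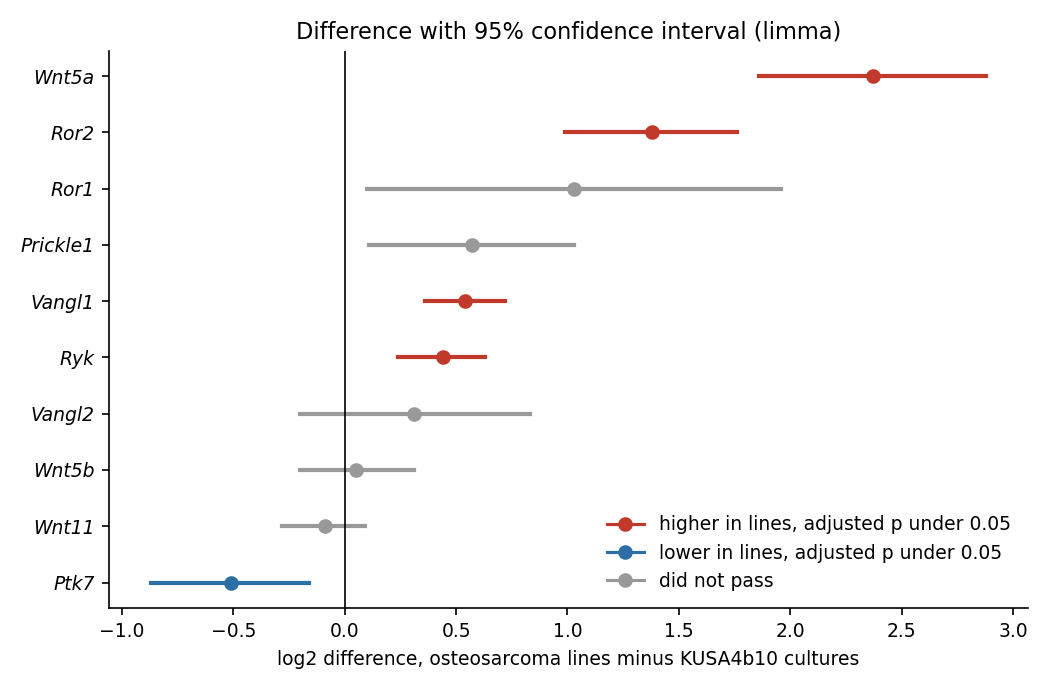
Log2 difference, osteosarcoma lines minus KUSA4b10 cultures (horizontal axis), for the 10 genes, as points with 95% confidence intervals from limma. Wnt5a (2.37), Ror2 (1.38), Vangl1 (0.54) and Ryk (0.44) passed upward and Ptk7 (-0.51) downward, while the grey intervals of Vangl2, Wnt5b and Wnt11 span zero.

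The lines were not alike. Against the mean of the cultures, OS_493H was 1.91 higher for Ror1, 0.82 for Vangl2 and 0.80 for Prickle1, whereas OS_494H was 0.30, -0.07 and 0.13 away for the same genes. Wnt5a was also lowest in OS_494H, at 1.85 above the cultures, beside 2.67 in OS_493H and 2.58 in OS_716H. OS_716H had the largest rise of Ror2 (1.71) and of Ryk (0.58) and the smallest fall of Ptk7 (-0.28). For 8 of the 10 genes all 3 lines lay on the same side of the culture mean, but the share of all genes was not computed. The exceptions were Wnt5b and Vangl2. The 8 include Wnt11, at -0.06, -0.20 and -0.02 in OS_493H, OS_494H and OS_716H, whose groups overlapped. The SD over the lines exceeded that over the cultures for 9 of the 10 genes and for 65.8% of all genes. There is 1 array per line, so these differences between lines have no test.

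**Figure D3:**
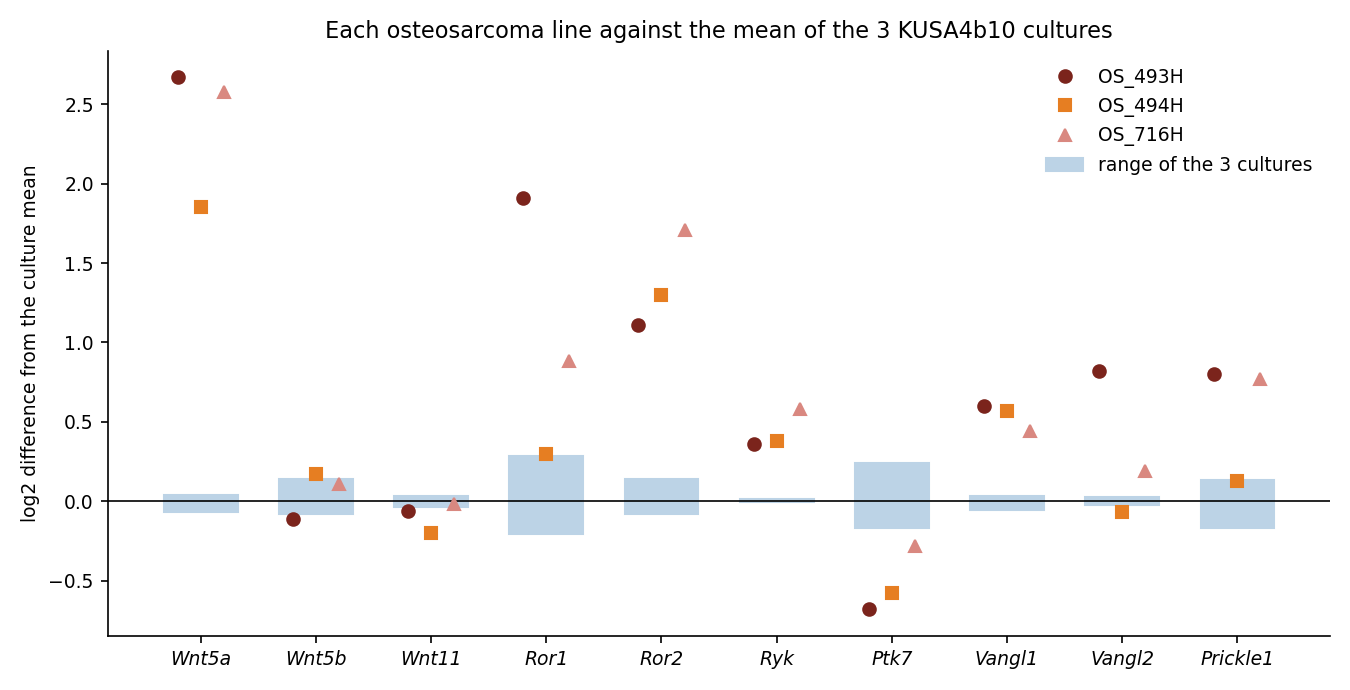
Log2 difference of each osteosarcoma line (points, by line) from the mean of the 3 KUSA4b10 cultures for the 10 genes, with the range of the cultures as blue bars. OS_493H is highest for Ror1 (1.91) and Vangl2 (0.82), and OS_494H lies inside or at the edge of the culture range for Prickle1 (0.13).

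Profiles most like those of Wnt5a and Ror2 were sought by the root mean square difference over the 6 arrays after centring each gene on its own mean. Closest to Wnt5a were Prrg1 (0.11 log2 units), Wnk3 (0.12) and Pcdh7 (0.15). Prrg1, a membrane protein with a Gla domain, was 9.44, 8.70 and 9.30 in the lines, against 6.88, 6.65 and 6.74 in the cultures, with the same dip in OS_494H. Wnk3, a kinase, and Pcdh7, a protocadherin, differed by 2.21 and 2.25. Closest to Ror2 were Mir100hg, a microRNA host transcript (0.09), Nxn, nucleoredoxin (0.09), and Nid2, a basement membrane nidogen (0.10). Nxn was 12.17, 12.22 and 12.52 in the lines, against 10.74, 11.13 and 10.76 in the cultures, with the arrays in the same order as for Ror2. Both searches compare 6 arrays that fall into 2 groups, so a small distance describes these arrays only.

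Further genes of the pathway moved in both directions, and their counts stand beside the 13.2% of all genes that rose and the 11.4% that fell. Of 28 other planar polarity genes measured, 7 rose and 3 fell, with a median of 0.12. Dact1, which binds Dishevelled, was 10.31, 8.61 and 10.61 in the lines, against 6.88, 7.21 and 6.75 in the cultures, and rose by 2.90 ± 0.50 (SE, limma adjusted p = 0.00764). Like Wnt5a, it was lowest in OS_494H among the lines. Fzd3, a Frizzled receptor of planar polarity, was 7.04, 7.24 and 7.14 in the lines, against 5.46, 5.55 and 5.53 in the cultures, a rise of 1.62 on the log2 scale (limma adjusted p = 0.000219). As with Wnt5a, the culture levels of Dact1 and Fzd3 are not shown to be above background, and no fold is given for them. The line levels of Fzd3 stood level with the epithelial list mean in the lines, 7.07 to 7.18. The same probe set read 5.46 to 5.55 in the cultures, so a mean over other probe sets does not set its background. Fat4, a giant protocadherin, rose 2.22-fold. Prickle2, the relative of Prickle1, rose 1.92-fold. Its culture values, 7.45, 7.54 and 7.43, stood close to those of the epithelial marker Cldn4, 7.48 to 7.62. They are thus not shown to be above background, and this fold is not a measure of true transcript ratio. The genes that fell were Fjx1, whose Drosophila counterpart is a kinase acting on Fat and Dachsous (1.92-fold), Fat1 (1.42-fold) and Wdpcp (1.37-fold). The line values of Fjx1, 7.25, 7.32 and 7.36, stood close to the epithelial list mean in the lines. Its fold is thus not a measure of true transcript ratio. The cytoplasmic hub of the pathway, Dishevelled, did not pass: Dvl1, Dvl2 and Dvl3 differed by 0.12, 0.08 and 0.01, and each of these 3 changed sign under some alternative. Without culture 1 or culture 3 the genes that rose numbered 3 and 4. In those fits 1533 and 1610 of all genes rose, against 2622 with all arrays. The call of Fat4 was lost without OS_493H, OS_716H, culture 1 or culture 3 (limma adjusted p up to 0.078), and that of Prickle2 without OS_493H or any 1 culture (up to 0.0764).

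Of 13 other Wnt5a receptors, co-receptors, ligands and secretion genes, 3 rose and 4 fell, with a median of -0.27. Fzd2, a Frizzled that binds Wnt5a, was 10.86, 10.57 and 10.63 in the lines, against 8.86, 9.54 and 8.92 in the cultures, 2.99-fold higher (limma adjusted p = 0.00235). The co-receptors of beta-catenin signalling split, as Lrp6 rose by 0.69 while Lrp5 fell by 1.06 on the log2 scale (limma adjusted p = 0.00443 and 0.00119). Fzd7 rose by 0.47, and Porcn, the enzyme that adds the lipid that Wnt proteins need for secretion, fell by 0.98. Mcam, a cell adhesion protein that binds Wnt5a, fell by 0.74 and Fzd5 fell by 0.47. The call of Porcn was lost without OS_493H, OS_494H, culture 1 or culture 2 (limma adjusted p up to 0.127), that of Mcam without OS_493H, culture 1 or culture 3 (up to 0.0597), and that of Fzd7 without any 1 array except OS_494H (up to 0.137). Without culture 1, 2 of these genes fell, while 1211 of all genes fell there, against 2274 with all arrays.

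Of 25 genes of the calcium branch, 3 rose and 5 fell, with a median of -0.02. Prkca, a calcium-dependent protein kinase C, rose 2.06-fold, the phospholipase Plcb4 1.89-fold and the calmodulin kinase Camk2g 1.83-fold. Itpr2, a calcium release channel, was 9.59, 9.27 and 9.50 in the lines, against 10.96, 10.60 and 11.02 in the cultures, 2.65-fold lower (limma adjusted p = 0.00136). Itpr3, Plcb1, Gnaq and the calcineurin subunit Ppp3cc fell by 0.57, 0.56, 0.42 and 0.27. The call of Ppp3cc was lost on leaving out any 1 array (limma adjusted p up to 0.108) and that of Plcb1 on leaving out any 1 except OS_716H (up to 0.12). In this list 3 genes fell without any 1 of OS_493H, OS_494H and the cultures. In those fits 1211 to 2314 of all genes fell, against 2274 with all arrays. The plot of the pathway lists sets these differences beside those of all genes.

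**Figure D4:**
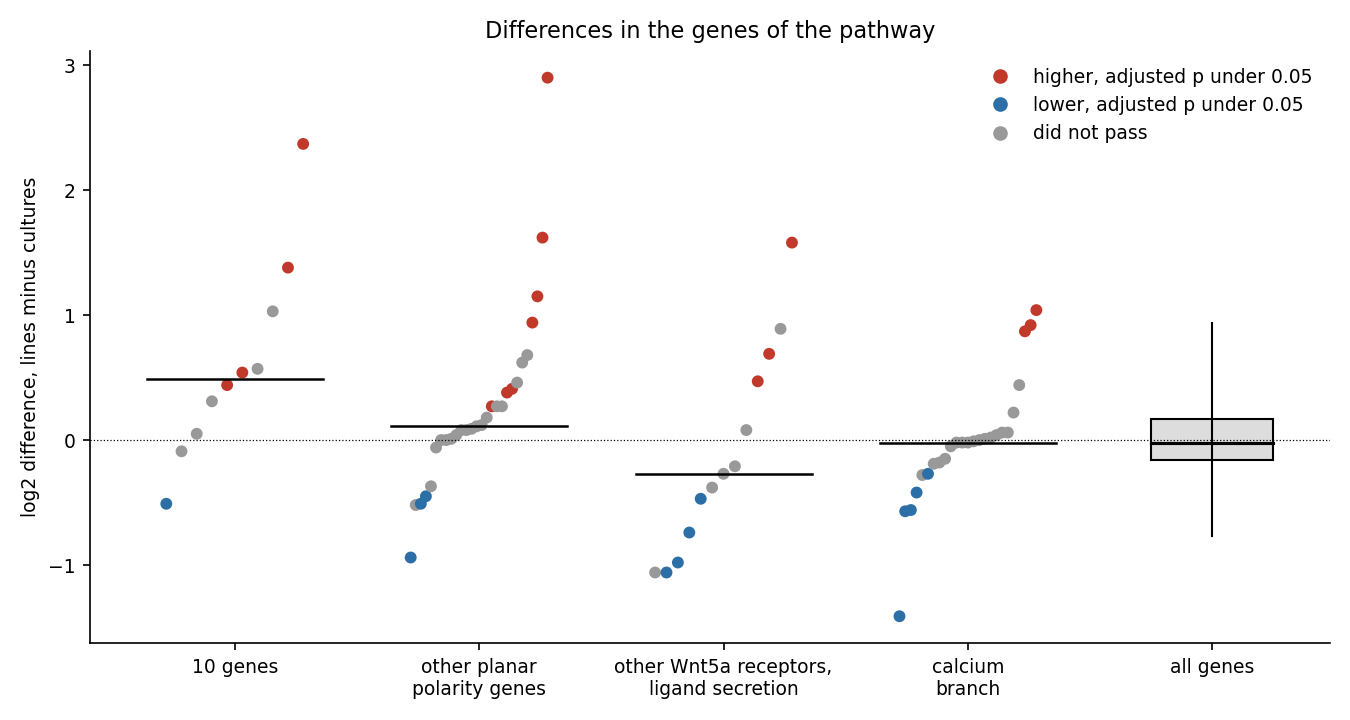
Log2 difference, lines minus cultures (vertical axis), of each gene in the 10-gene set and in 3 lists of other pathway genes, ordered within each list by size, with the list median as a bar, and of all genes as a box from the 25th to the 75th percentile with whiskers to the 5th and 95th. The list medians run from -0.27 to 0.49, and the whiskers for all genes from -0.77 to 0.94.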

How the data were processed

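RNA of 3 osteosarcoma lines and 3 KUSA4b10 cultures was read on 1 array each. The deposited log2 values cover 35556 probe sets (3.04 to 14.88, array medians 7.45 to 7.58) and were made with RMA, beside which mm9 is named, per the submitters' processing notes. The program that ran RMA is not given in the sources used. RMA equalises probe distributions between arrays and summarises probes. Large differences can come out compressed on such arrays, and no probe set has a detection call.

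The platform annotation gave 1 symbol for 21789 probe sets, several for 1621 and none for 12146. Those with 1 symbol, reduced to the brightest probe set per gene by its mean over the arrays, gave 19938 genes. All were fitted with limma 3.58.1 in R 4.3.3 (lmFit, eBayes, default settings, two-sided, no covariate), after the fit was tested on simulated data. Exact permutation tests used scipy 1.17.1. Groups came from the titles, and no batch was given. The members and lists were chosen with earlier results of these data known. A further list of pathway genes was fitted and is not reported here. Named genes are the 10 genes, up to 4 called genes of largest difference per pathway list, and the 3 genes most like Wnt5a and Ror2. Prickle2, Fat1, Wdpcp, Lrp6, Fzd5, Fzd7, Itpr3, Plcb1, Gnaq, Ppp3cc, the Dvl genes and single markers were named after their values were seen. Alternatives were other scalings, filters, moderation, weights, probe set rules and thresholds, cultures 1 and 3 as 1 sample, and leaving out each array.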

Additional observations from a re-analysis of the deposited data

How the results depend on the processing

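The 10 genes were refitted under 16 alternatives. The number that rose was 4 in 13 of them, 6 with array weights and without OS_494H, where Ror1 and Prickle1 also passed, and 3 at an adjusted p under 0.01, which Ryk missed. Wnt5a (2.22 to 2.63), Ror2 (1.21 to 1.51) and Vangl1 (0.51 to 0.60) kept direction and call under all 16, with adjusted p up to 0.00883, 0.0145 and 0.0216. The number that fell was 0, not 1, with quantile normalisation, median centring, an intensity trend, all probe sets by identifier, cultures 1 and 3 as 1 sample and an adjusted p under 0.01, and it ranged from 0 to 1 on leaving out 1 array. Ptk7 then differed by -0.63 to -0.39. Wnt11 and, among the other pathway genes, Fzd3 were too dim for the fit on brighter genes. On leaving out 1 array Wnt5b ran from -0.0034 (without OS_494H) to 0.14, Dvl1 from -0.01 (without OS_494H) to 0.22, Dvl2 from -0.05 (without OS_494H) to 0.18 and Dvl3 up to 0.07. Dvl3 differed by -0.05 with quantile normalisation, -0.02 with cultures 1 and 3 as 1 sample, -0.04 without OS_493H, -0.03 without culture 1 and -0.01 without culture 3. The cause of these changes was not tested. The shift of Wnt5a minus Wnt5b was 2.08 to 2.63 over 9 alternatives, and no shift of a pair of relatives changed sign in those 9. They did not include array weights, under which the separate differences put Ror1 (1.43) above Ror2 (1.32), against 1.03 and 1.38 without weights. Over all genes 2622 rose and 2274 fell. These counts were 3322 and 2877 with array weights, and 2733 and 2314 without OS_494H. They were 1533 and 1211 without culture 1, 1610 and 1350 without culture 3, and 1606 and 1316 with cultures 1 and 3 as 1 sample. At an adjusted p under 0.01 they were 1394 and 1072, and 4150 of 35556 probe sets fell by identifier. No scaling moved the median of all genes by over 0.1. No paired analysis was possible because only the cultures carry replicate numbers in their labels. Without scanner files, signal over background could not be measured.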
